A study of Mus musculus with 10 samples.

Results

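The genes examined were *Cd4*, *Cd8a*, *Cd8b1*, *Gzma*, *Gzmb*, *Nkg7*, *Ifng*, *Foxp3*, *Ctla4* and *Cd274*, which mark T cell subsets, their effector functions and their checkpoints. They were taken by symbol from the 53974 genes of the RNA-seq table, and all 10 were found there and passed the filter on low values that left 17555 genes. In the ATAC-seq comparison, 2 of 16600 regions lay within 1000 bp of an end of one of these genes. To study how loss of *Arid1a* acts on axotomized retinal ganglion cells (RGCs), *Arid1a* fl/fl mice of the C57BL/6 strain, labelled as 8 to 10 weeks old, received AAV2-GFP (WT, labelled *Arid1a* fl/fl) or AAV2-Cre (cKO, labelled *Arid1a* del/del) in the vitreous 2 weeks before optic nerve crush (ONC). Retinas were taken 3 days after ONC, dissociated and sorted with an antibody to Thy1.2, giving 3 RNA-seq libraries of each group and 2 ATAC-seq libraries of each group, each from several pooled retinas. Both groups carry the floxed allele, an AAV2 and the crush, so no uninjured or uninjected retina stands beside them. The AAV2-GFP stock had a higher titre than the AAV2-Cre stock. Titre and virus cargo therefore cannot be told apart between the groups. GFP and Cre were driven by the CMV promoter, which is not limited to one cell type.

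T cells recognise antigen through a receptor carried by the CD3 chains. CD4 marks helper and regulatory T cells, and CD8, built from an alpha and a beta chain, marks cytotoxic T cells. Cytotoxic T cells and NK cells kill by releasing granules that hold granzymes, and both secrete interferon gamma, while regulatory T cells depend on the transcription factor Foxp3. CTLA-4 on T cells and PD-L1, the product of *Cd274*, on the cells they meet restrain these responses. Few T cells are found in an intact retina, and in mice Thy1 is carried by T cells as well as by RGCs.

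The 250 bases before the start of *Nkg7* and *Ifng* are shown because a peak of open chromatin reached this stretch in at least 1 WT library. Those of *Gzmb* are shown because it had no peak at its ends and the largest log2 fold change of RNA of the 10 genes by limma. Its ratio of group means was not the largest. The sequences are from RefSeq on GRCm38.p6 and run 5′ to 3′ on the strand of the gene, at chr7:43436888-43437137 (plus), chr10:118440796-118441045 (plus) and chr14:56262335-56262584 (minus). Capitals mark the matches, on either strand, to the motif letters searched.
*Nkg7*: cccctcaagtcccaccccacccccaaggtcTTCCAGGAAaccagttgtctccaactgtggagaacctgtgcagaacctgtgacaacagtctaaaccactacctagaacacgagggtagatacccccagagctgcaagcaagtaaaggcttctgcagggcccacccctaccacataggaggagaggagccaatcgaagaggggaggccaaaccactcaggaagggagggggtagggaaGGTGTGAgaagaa
*Ifng*: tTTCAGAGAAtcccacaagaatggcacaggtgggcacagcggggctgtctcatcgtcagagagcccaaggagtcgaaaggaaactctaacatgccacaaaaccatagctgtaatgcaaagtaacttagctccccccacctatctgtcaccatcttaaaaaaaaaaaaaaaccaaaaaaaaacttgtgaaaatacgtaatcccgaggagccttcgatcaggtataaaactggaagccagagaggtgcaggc
*Gzmb*: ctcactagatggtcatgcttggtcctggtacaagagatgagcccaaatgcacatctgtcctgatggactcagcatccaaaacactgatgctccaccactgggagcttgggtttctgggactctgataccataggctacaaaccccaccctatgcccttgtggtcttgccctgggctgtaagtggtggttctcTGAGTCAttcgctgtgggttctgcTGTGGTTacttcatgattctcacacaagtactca
The *Nkg7* stretch holds a STAT match (TTCNNNGAA) that begins 220 bases before the start and a T-box match (TCACACC, read on the other strand) that begins 13 bases before it. The *Ifng* stretch holds a STAT match near its 5′ end, and the *Gzmb* stretch holds an AP-1 match (TGANTCA) at 58 bases and a RUNX match (TGTGGTT) at 34 bases before it. Over all 32851 RefSeq windows of 300 bases (250 before and 50 after a start), 8.30% held the STAT letters, 3.98% the T-box letters, 7.81% the AP-1 letters and 5.27% the RUNX letters on either strand. Of the 10 genes, 8 matched the promoter table, with 9 windows, and 4 of the 8 held the STAT letters, in *Foxp3*, *Gzmb*, *Ifng* and *Nkg7*. No window of these genes held the ETS letters CCGGAAG, which 8.86% of all windows held, and 1 held the SP letters GGGCGG, in *Cd274*, against 35.7% of all windows. The letters TGGAAA (NFAT) were in 3 of the 8 genes and in 21.4% of windows, and the interferon-stimulated response element was in *Gzma* and in 3.44% of windows. A match is a description of letters and not of binding.

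The values below are TPM, the authors' estimate of transcript abundance per length scaled to a fixed sum in each library, so levels may be compared between genes. They keep no sequencing depth, so no counting error can be given. All 10 genes had a lower mean in the cKO libraries, by 2.76 times for *Cd274* to 7.45 times for *Ctla4*, and none passed an adjusted p under 0.05 from limma over all genes tested, at which 0.0057% of genes (1 gene, higher in cKO) were called. At an unadjusted p under 0.05, 8 of the 10 were lower and 0 were higher, beside 6.45% of all genes tested that were lower. In 5 of the 10, every cKO library lay below every WT library, which held for 7.18% of all genes tested. The 10 genes were picked with results of these libraries known, so these counts are not independent evidence. The median log2 fold change of the 10 was -1.94, where the median of all genes was 0.16, and scaling by the median of ratios gave -2.10 and 0.01.

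**Figure D1:**
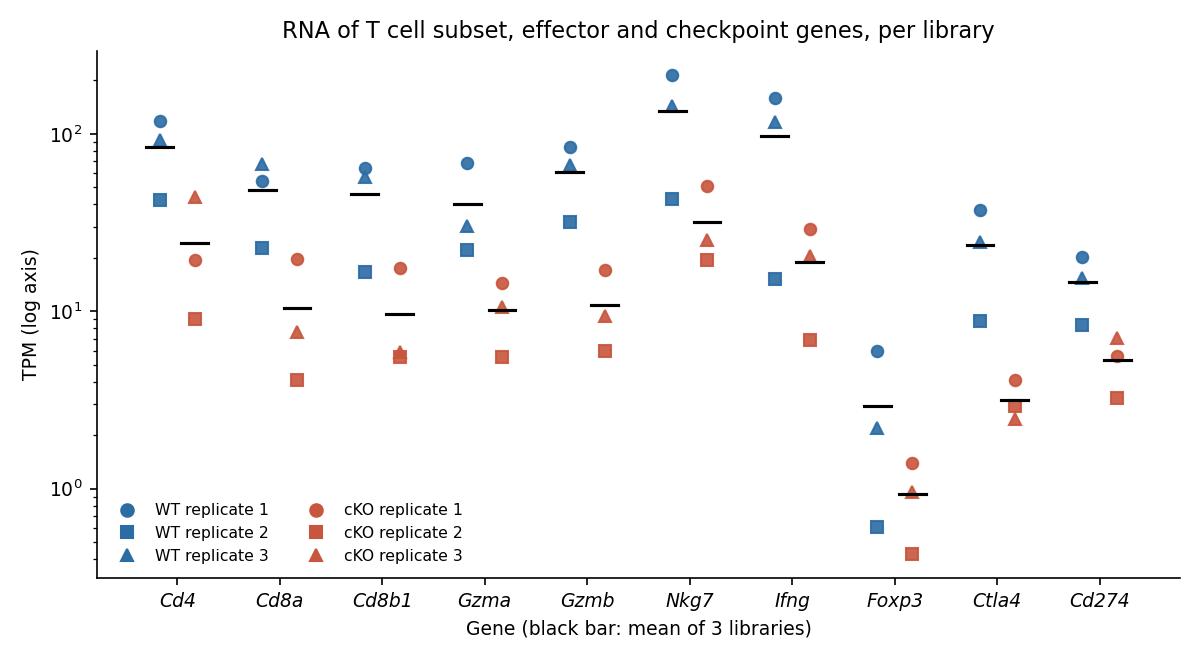
TPM of the 10 genes in each of 3 WT and 3 cKO libraries on a log axis, with a black bar at each group mean. WT replicate 2 (blue square) is the lowest WT library for all 10 genes, and the cKO points of *Cd8a*, *Gzma*, *Gzmb*, *Ctla4* and *Cd274* all lie below the WT points.

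Among the coreceptors, *Cd4*, which binds MHC class II, had 119, 42.4 and 92.7 TPM in WT replicates 1, 2 and 3 and 19.6, 9.02 and 43.8 TPM in the cKO replicates. The groups overlapped, since cKO replicate 3 lay just above WT replicate 2. Its log2 fold change of -1.91 had a standard error of 0.60 (unadjusted p = 0.0158 and adjusted p = 0.180, limma). *Cd8a*, the alpha chain of CD8, had 54.5, 22.6 and 67.8 TPM in WT and 19.7, 4.11 and 7.61 TPM in cKO. All 3 cKO libraries lay below the lowest WT library (two-sided p = 0.1 by exact permutation, the lowest that 3 libraries a group can give), and limma put the log2 fold change at -2.21 with a standard error of 0.60 (adjusted p = 0.150). *Cd8b1*, the beta chain, had 64.0, 16.7 and 57.4 TPM in WT and 17.5, 5.55 and 5.91 TPM in cKO. Here cKO replicate 1 lay above WT replicate 2, and the log2 fold change of -2.11 had a standard error of 0.62 (adjusted p = 0.163, limma). In bulk libraries, fewer cells of a type and less RNA per cell cannot be told apart.

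Of the cytotoxic genes, *Gzmb*, which encodes the granzyme that activates caspases in target cells, had 84.4, 31.96 and 66.7 TPM in WT and 17.1, 5.95 and 9.44 TPM in cKO. The groups did not overlap, and its log2 fold change of -2.39 was the largest of the 10 (standard error 0.48, limma unadjusted p = 0.00149 and adjusted p = 0.124). That rank depends on the settings. With 0.1 in place of 1 added to each TPM, *Ctla4* stood at -2.66 and *Gzmb* at -2.50. Without WT replicate 2, *Ifng* (-2.99) and *Ctla4* (-2.93) lay beyond *Gzmb* (-2.80). *Gzma*, a granzyme with a trypsin-like cut, had 68.5, 22.1 and 30.2 TPM in WT and 14.4, 5.49 and 10.6 TPM in cKO. Its groups did not overlap either (log2 fold change -1.81 with a standard error of 0.50, limma adjusted p = 0.150). *Nkg7*, a membrane protein of cytotoxic granules, was the most abundant of the 10 in both groups, with 215, 42.7 and 144 TPM in WT and 50.8, 19.5 and 25.2 TPM in cKO. WT replicate 2 lay below cKO replicate 1, and the log2 fold change of -1.87 had a standard error of 0.63 (limma adjusted p = 0.192).

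*Ifng*, the gene for interferon gamma, had 159, 15.2 and 117 TPM in WT and 29.2, 6.88 and 20.5 TPM in cKO. WT replicate 2 lay among the cKO libraries, below 2 of them, and the log2 fold change of -1.97 (standard error 0.91) had a 95% interval from -4.12 to 0.19 (unadjusted p = 0.0676, adjusted p = 0.303 from limma). That interval comes from the unpaired fit. Within each same-numbered pair *Ifng* was lower in cKO (3 of 3 pairs). Blocking on the replicate number gave its fold change a standard error of 0.34 (limma unadjusted p = 0.00162 and adjusted p = 0.0762). All 10 genes were lower in 3 of 3 pairs, and the block lowered the standard error of each. The share of all genes for which either held was not computed, so neither count can be read as particular to the 10. With the block, 8.52% of all genes were lower at an unadjusted p under 0.05. The labels do not state that same-numbered libraries were pairs. *Foxp3* was the least abundant of the 10, with 5.95, 0.607 and 2.19 TPM in WT and 1.40, 0.429 and 0.958 TPM in cKO. Its groups overlapped, and the 95% interval of its log2 fold change of -0.80 ran from -2.09 to 0.49 (adjusted p = 0.471 from limma), on a scale that understates changes of genes near 1 TPM.

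Of the checkpoint genes, *Ctla4*, which competes with CD28 for its ligands, had 37.3, 8.82 and 24.7 TPM in WT and 4.10, 2.92 and 2.48 TPM in cKO. The groups did not overlap, and the cKO libraries lay closer together than those of any other gene of the 10 except *Foxp3* (SD 0.838 TPM, n = 3). With a standard error of 0.51, its log2 fold change was -2.37 (limma unadjusted p = 0.00232 and adjusted p = 0.124). *Cd274* had 20.2, 8.33 and 15.5 TPM in WT and 5.58, 3.26 and 7.09 TPM in cKO. Its groups did not overlap, and its log2 fold change of -1.28, with a standard error of 0.41 and a limma adjusted p of 0.181, was the smallest apart from that of *Foxp3*.

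**Figure D2:**
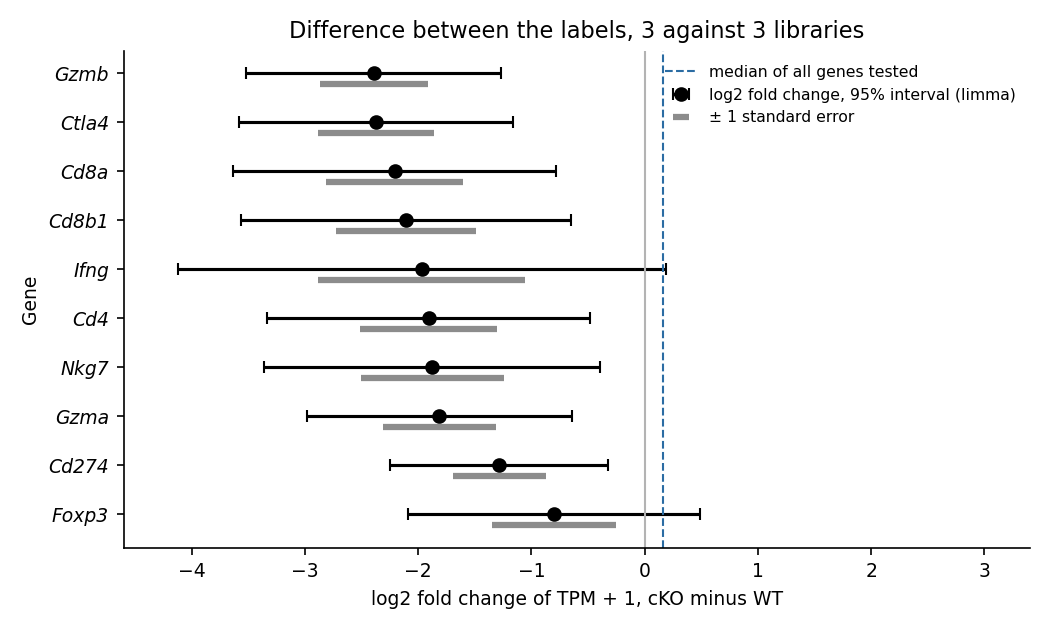
Log2 fold change of TPM + 1, cKO minus WT, for each gene, with its 95% interval from limma (black) and 1 standard error either side (grey); the dashed line is the median of all genes tested, 0.16. All 10 points lie left of 0, and the intervals of *Ifng* and *Foxp3* from this unpaired fit include 0.

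In WT the order of mean TPM was *Nkg7*, *Ifng*, *Cd4*, *Gzmb*, *Cd8a*, *Cd8b1*, *Gzma*, *Ctla4*, *Cd274* and *Foxp3*. Each neighbour in that order overlapped the next over the 3 libraries, except *Cd274* and *Foxp3*. In cKO the order was the same for *Nkg7* at the top and *Foxp3* at the bottom, with *Cd4* above *Ifng*, *Gzma* above *Cd8b1* and *Cd274* above *Ctla4*. Only *Ctla4* and *Foxp3* did not overlap there as neighbours. The libraries within a group also held a common order. WT replicate 2 was the lowest WT library for 10 of the 10 genes and WT replicate 1 the highest for 9, while cKO replicate 2 was the lowest cKO library for 9 and cKO replicate 1 the highest for 8. Without WT replicate 2, all 10 genes had cKO libraries below the WT libraries (11.5% of all genes then) and all 10 had an unadjusted p under 0.05 (7.69% of all genes were lower at that p). Without WT replicate 1, 5 of the 9 genes still tested were lower at that p, beside 6.72% of all genes, and 5 did not overlap, beside 14.3%. Without cKO replicate 2, 6 were lower at that p, beside 4.12% of all genes, and 5 did not overlap, beside 8.8%. With the replicate number as a block, 9 of 10 were lower at that p, beside 8.52% of all genes. No gene of the 10 then passed an adjusted p under 0.05 (lowest 0.0585 from limma, for *Gzmb*).

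Markers of T cells lay lower in the same libraries. Of 10 T cell markers (*Cd3d*, *Cd3e*, *Cd3g*, *Cd247*, *Trac*, *Trbc1*, *Trbc2*, *Lck*, *Zap70* and *Lat*), 9 were lower in cKO at an unadjusted p under 0.05, beside 6.45% of all genes tested. The summed level of the 10 markers was 1050 to 3007 TPM in WT and 270 to 634 TPM in cKO, with none at 0. Each of the genes was therefore divided by the summed TPM of *Cd3d*, *Cd3e* and *Cd3g* in the same library, which was 218, 77.4 and 141 TPM in WT and 43.4, 27.6 and 20.6 TPM in cKO. Per Cd3 RNA, the log2 difference between cKO and WT was between -0.23 (*Gzmb*) and 0.35 (*Gzma*) for 8 of the 10 genes, and their groups overlapped. For *Gzmb* the mean log2 ratio was -1.23 ± 0.15 in WT and -1.46 ± 0.52 in cKO (SD, n = 3, exact two-sided permutation test, p = 0.7), and for *Ctla4* it was -2.66 ± 0.29 and -2.88 ± 0.24 (p = 0.4 by the same exact test). With a pseudocount of 0.1 in place of 1, the differences were larger, at -0.31 for *Gzmb* and -0.47 for *Ctla4*. *Cd274*, which many cell types express, stood at -3.18 ± 0.16 in WT and -2.31 ± 0.77 in cKO, a difference of 0.88 that was 0.43 without cKO replicate 3. Its groups did not overlap (two-sided p = 0.1 by exact permutation, again the lowest that can be had, and 0.5 once adjusted over the 10 ratios). *Foxp3* differed by 1.36 with the same p, on values that the pseudocount of 1 dominates, and as a plain ratio of TPM its groups overlapped, from 0.00785 to 0.0273 in WT and 0.0155 to 0.0465 in cKO. A p that misses the threshold does not show that the ratios were alike. Within same-numbered pairs, a comparison chosen after seeing the data, *Nkg7* per Cd3 RNA was higher in cKO by 0.24, 0.36 and 0.25. *Foxp3* and *Cd274* per Cd3 RNA were also higher in 3 of 3 pairs. For each of these genes the exact sign-flip test gave p = 0.25, the smallest that 3 pairs allow. Per summed TPM of *Trac*, *Trbc1* and *Trbc2*, *Nkg7* was lower in cKO replicate 3 (0.0569) than in WT replicate 3 (0.0737). By that measure *Foxp3* and *Cd274* stayed higher in cKO in 3 of 3 pairs. Per RNA of *Ptprc*, the gene for the leukocyte antigen CD45, the median difference over the 10 genes was -0.51, against 0.22 per Cd3 RNA.

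**Figure D3:**
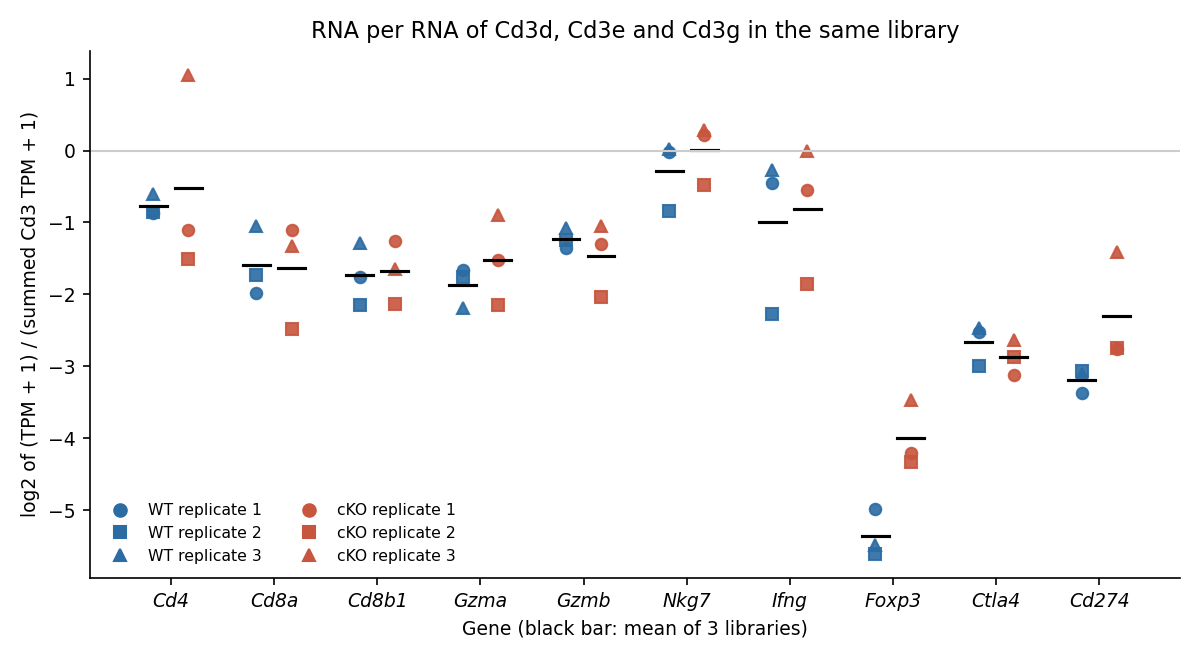
Log2 of each gene's TPM + 1 over the summed TPM + 1 of *Cd3d*, *Cd3e* and *Cd3g*, per library, with a black bar at each group mean. The groups overlap for all genes but *Foxp3* and *Cd274*, and cKO replicate 3 (red triangle) stands apart for *Cd4*.

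Within the 10, *Cd4* in cKO replicate 3 departed most from the rest of its library, at 2.13 TPM per TPM of Cd3 RNA, where the other 5 libraries held 0.326 to 0.657. That library had the lowest Cd3 sum, and per summed TPM of *Trac*, *Trbc1* and *Trbc2* its *Cd4* stood at 0.0989, against 0.0420 to 0.0530 in the other 5. Other leukocyte markers lay lower in cKO as well, beside 6.45% of all genes tested that were lower at an unadjusted p under 0.05. Of 4 NK cell markers, 3 were tested and 2 were lower at an unadjusted p under 0.05, with sums of 20.9 to 40.7 TPM in WT and 2.95 to 8.42 TPM in cKO. Of 5 B cell markers, 4 were tested and 3 were lower, with sums of 29.6 to 106 TPM in WT and 8.86 to 18.3 TPM in cKO. Of 10 markers of myeloid cells and microglia, 5 were lower, with sums of 897 to 1867 TPM in WT and 522 to 676 TPM in cKO. The log2 fold change was below 0 for 9 of the 10, among them *Tmem119* (-0.71) and *Cx3cr1* (-0.60). It was above 0 for 1, *P2ry12*, a microglial receptor, at 0.10. All 8 rod markers were higher at an unadjusted p under 0.05, a direction in which 11.9% of all genes passed, with sums of 12420 to 17385 TPM in WT and 25833 to 48488 TPM in cKO. Of the 11 RGC markers, 8 were tested and 1 was higher, *Thy1*, the target of the sorting antibody, with 51.9 to 88.5 TPM in WT and 94.4 to 129 TPM in cKO. Of the defining RGC factors, *Pou4f2* and *Pou4f3* were each listed at 0 in 5 of 6 libraries and *Pou4f1* had 0.0838 to 3.604 TPM. *Rbpms* had 1.82 to 6.43 TPM and *Nefl* 5.47 to 20.6 TPM, while *Isl1*, which bipolar and amacrine cells also express, had 51.9 to 104 TPM. The Mueller glia list had 0 of 4 genes past that p, the endothelial list 1 of 3 tested lower, and the bipolar and amacrine list 1 of 6 higher. *Arid1a* itself had 11.7 to 18.8 TPM in WT and 18.8 to 27.9 TPM in cKO (log2 fold change 0.66, adjusted p = 0.274 from limma), so the directions given rest on the labels. A whole-gene TPM does not read the floxed part of *Arid1a* alone. The part of these other cell types and of the library differences in the results was not tested.

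To see whether the genes around these 10 differed too, 51 further genes of T cell identity, killing, helper and regulatory subsets and checkpoints were read from the same fit. Of these, 45 were tested and 0 passed the adjusted threshold. At an unadjusted p under 0.05, 32 were lower and 1 was higher, beside 6.45% and 11.9% of all genes tested. In 28 of the 51, every cKO library lay below every WT library, which held for 7.18% of all genes tested. The 51 include genes that did not pass the filter on low values. The median log2 fold change of the 45 tested was -1.60. Of the related genes whose groups did not overlap, the largest differences were in *Il10*, a cytokine that damps inflammation, with 16.2, 1.68 and 9.47 TPM in WT and 1.37, 0.127 and 0.249 TPM in cKO (log2 fold change -2.39), and *Cd2*, a T cell adhesion receptor, with 155 ± 63.9 TPM in WT and 33.9 ± 15.5 TPM in cKO (SD, n = 3, log2 fold change -2.20). *Gzmk*, *Prf1*, the pore-forming perforin, and *Fasl*, the ligand of the death receptor Fas, stood at -2.15, -2.04 and -2.02. *Runx3*, a factor of the cytotoxic lineage, had 23.8, 18.5 and 23.7 TPM in WT and 5.99, 2.54 and 5.04 TPM in cKO (log2 fold change -2.11), so WT replicate 2 lay closer to the other WT libraries than it did for the 10 genes. The activation marker *Cd69*, the checkpoint receptor *Tigit* and the activating receptor *Klrk1* stood at -2.15, -2.09 and -2.01, and *Il7r*, which encodes the interleukin 7 receptor, had means of 41.7 TPM in WT and 9.46 TPM in cKO.

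By group, 9 of 10 cytotoxic genes tested were lower and 1 was higher. The exception, named after its values were seen, was *Gzmm*, another granzyme gene, with 14.1, 13.6 and 6.92 TPM in WT and 24.1, 32.6 and 24.6 TPM in cKO (log2 fold change 1.21 with a standard error of 0.33, limma adjusted p = 0.148). All 3 cKO libraries lay above the WT libraries for it, as they did for 18.7% of all genes tested. Of 10 identity genes 8 were lower, of 9 checkpoint genes 7, of 5 regulatory genes 3 and of 11 helper factors and cytokines 5. The interferon gamma receptor gene *Ifngr1* had a log2 fold change of -0.71 and *Ifngr2* one of -0.21. *Tox*, a factor of exhausted T cells that other cells also express, had -0.15, and *Ikzf4*, a regulatory T cell factor, had 0.13. *Gzmc* and *Il17a* were under 1 TPM in every library.

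**Figure D4:**
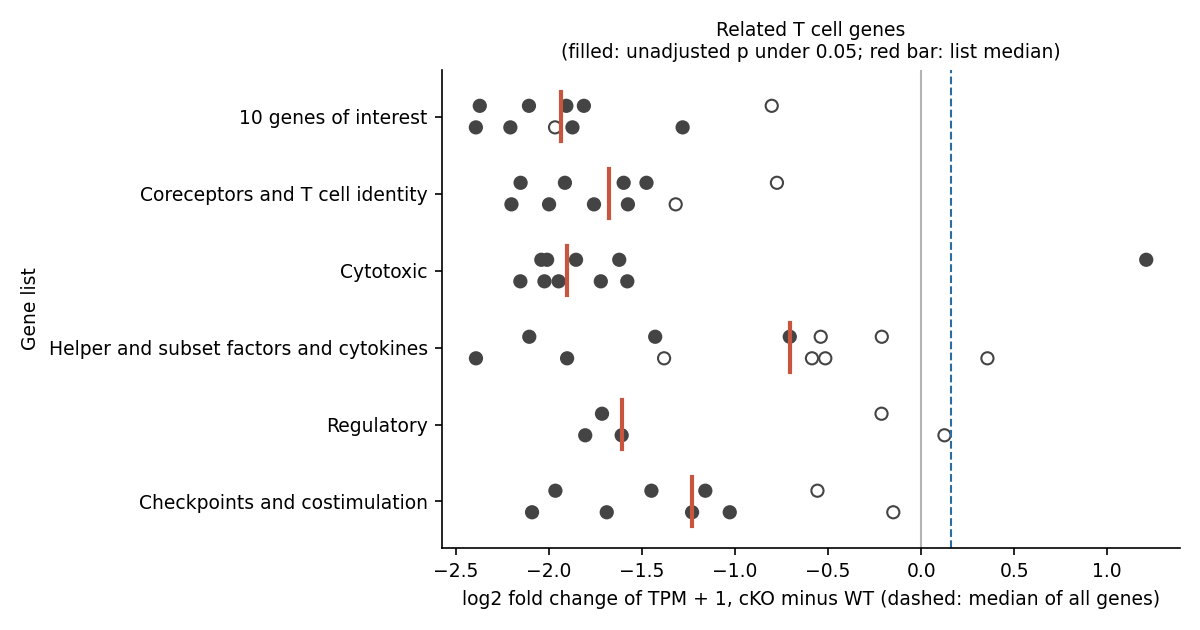
Log2 fold change of TPM + 1, cKO minus WT, for the 10 genes and 5 lists of related genes, 1 point per gene tested, filled where the unadjusted p was under 0.05, with a red bar at each list's median. The list medians lie between -1.94 and -0.71, and the filled point right of 0 is *Gzmm*.

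Over the 6 libraries, the genes nearest the mean profile of the 10 were *Ms4a6b*, *Gimap9*, *Lax1*, *Ifi214* and *Bcl2a1d*. Their mean absolute difference was 0.06 to 0.11 in centred log2(TPM + 1), where the 10 genes themselves lay 0.19 to 0.54 from it. They were picked as the nearest of all other genes tested, so nothing is drawn from their lying nearer than the 10. *Ms4a6b*, the nearest, had 150, 42.7 and 110 TPM in WT and 34.1, 14.7 and 21.8 TPM in cKO.

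Open chromatin at these genes was then read from the ATAC-seq data, to compare the ends of the genes with their RNA. Only *Nkg7* and *Cd274* had a region in the authors' comparison within 1000 bp of an end, or 2 of 10 genes, where 51.5% of the tested genes with a position had one. The *Nkg7* region, on chromosome 7 of GRCm38 from 43436512 to 43437248, ran from -626 to 110 bp around the gene's start, and so covers the *Nkg7* sequence printed above with its STAT and T-box letters. The authors' mean there was 26.4 normalized reads in WT and 4.66 in cKO, a log2 difference of -2.50. *Lim2*, a neighbouring gene, also has an end within 1000 bp of this region. The *Cd274* region, on chromosome 19 from 29361624 to 29362058, ran from -483 to -49 bp of the lower-coordinate end of the annotated gene, with an authors' mean of 17.9 normalized reads in WT and 2.07 in cKO, a log2 difference of -3.11. A log2 difference below -1 was held by both regions and by 59.6% of all regions, whose median was -1.57. The comparison holds group values alone, so no spread and no test between replicates can be given, and for both genes the RNA values above were lower in cKO as well (mean 134 against 31.9 TPM for *Nkg7* and 14.7 against 5.31 TPM for *Cd274*).

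Both regions had a peak in both WT libraries and in no cKO library. At *Nkg7* the peak of WT replicate 2 ended 160 bp before the start, so it covered the STAT letters but not the T-box letters. WT replicate 1 also had a peak over the start of *Ifng* (chromosome 10, 118440617 to 118441169, covering the *Ifng* sequence printed above) and one over the lower-coordinate end of *Cd8b1* (chromosome 6, 71322696 to 71323348). It had further peaks 525 bp outside the lower-coordinate end of *Cd4* and 597 bp outside the upper end of *Ctla4*. *Ctla4* lies on the plus strand, so that peak is past the 3′ end of the gene and not at its start. WT replicate 2 had none of these 4 peaks. The start of *Cd274* in the RefSeq promoter table lies inside the annotated gene, at 29367438, and WT replicate 1 alone had a peak in the window around it (chromosome 19, 29367040 to 29367383). In all, 6 of 10 genes had a peak within 1000 bp of an end in WT replicate 1 (65.1% of tested genes did), 2 in WT replicate 2 (58.2%), 0 in cKO replicate 1 (13.6%) and 1 in cKO replicate 2 (13.9%), a peak 471 bp inside the upper end of *Cd8b1*. *Cd8a*, *Gzma*, *Gzmb* and *Foxp3* had no peak within 1000 bp of an end in any of the 4 libraries, although *Gzmb* RNA reached 84.4 TPM. The libraries differed in their number of peaks, from 42265 in WT replicate 2 to 76522 in WT replicate 1. Since 2 libraries a group are too few for an exact p below 0.05, the counts were left untested.

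**Figure D5:**
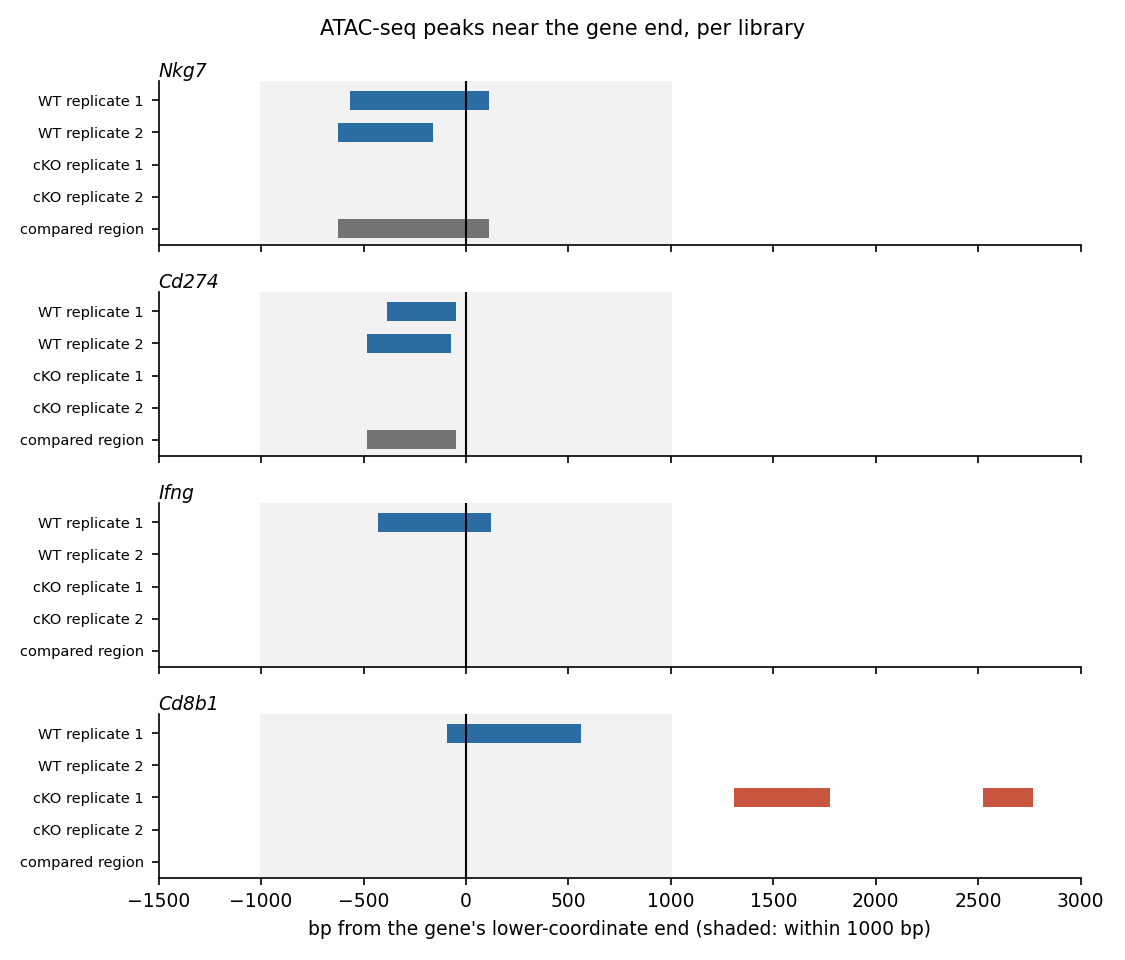
Peaks of the 4 ATAC-seq libraries near the lower-coordinate end of *Nkg7*, *Cd274*, *Ifng* and *Cd8b1*, in bp from that end, with the region of the authors' comparison as a dark grey bar and 1000 bp either side shaded. Peaks at *Nkg7* and *Cd274* appear in both WT libraries, those at *Ifng* and at the *Cd8b1* end in WT replicate 1 alone, and the cKO peaks shown at *Cd8b1* lie inside the gene, over 1000 bp from this end.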

How the data were processed

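RNA-seq covered 3 WT and 3 cKO libraries and ATAC-seq 2 of each, grouped by their labels. The authors trimmed the reads with Trimmomatic, quantified RNA with Salmon 1.0.0 on GENCODE, summed it to genes with tximport and deposited TPM. For ATAC-seq the authors aligned reads to GRCm38 with Bowtie 2 2.3.5.1, called peaks per library (the submitters' processing notes name MACS2 2.2.5), and deposited peak positions and, from DiffBind, log2 values of the mean normalized reads for each group. Their fold changes, p-values and FDR for RNA and regions were not used. Depth is kept in neither table.

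Genes reaching 1 TPM in 3 or more libraries were retained, and log2(TPM + 1) was fitted with limma 3.58.1 (R 4.3.3, trend on) with Benjamini-Hochberg adjustment over all 17555 genes. The design was unpaired. Deviations of same-numbered libraries from their group means correlated across genes at 0.334, 0.101 and 0.425 for replicates 1, 2 and 3. Different-numbered libraries ranged from -0.386 (WT 1 with cKO 3) to 0.193 (WT 1 with cKO 2). The upper value lay above the 0.101 of replicate 2. The block was an alternative that treats the numbers as pairs, which the labels do not state. Other alternatives were a pseudocount of 0.1, no filter, a mean TPM of 5, scaling by the median of ratios, no trend, leaving out each library, other denominators, differences within pairs (added after seeing the data) and 3000 bp around gene ends. Positions, on GRCm38.p6, and promoter sequences came from RefSeq, and printed positions count from 1. The scripts were tested on simulated data. Python 3.11.15, numpy 2.4.6, pandas 2.3.3, scipy 1.17.1 and matplotlib 3.10.9 did the rest.

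The 10 genes, the 51 related genes, the markers and the motifs were chosen with earlier results of these data known. Named among the related genes were up to 10 without overlap between the groups and with a mean of at least 5 TPM in either, by absolute log2 fold change, those under 1 TPM throughout, and the 5 genes nearest the mean profile. *Gzmm* and the further related genes given with a fold change alone (*Ifngr1*, *Ifngr2*, *Tox* and *Ikzf4*) were chosen after their values were seen.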

Additional observations from a re-analysis of the deposited data

How the results depend on the processing

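The 10 genes kept a negative log2 fold change under every alternative in which they were tested, and no gene of the 10 passed an adjusted p under 0.05 in any of them. *Foxp3* could not be tested at a mean TPM of at least 5, nor without WT replicate 1, WT replicate 3 or cKO replicate 1. Leaving out 1 library at a time gave 5 to 10 lower genes at an unadjusted p below 0.05. There were 5 without WT replicate 1 (beside 6.72% of all genes) and 10 without WT replicate 2 (beside 7.69%). Groups did not overlap for 5 to 10 genes, with 5 without WT replicate 1 (beside 14.3% of all genes) and 10 without WT replicate 2 (beside 11.5%). That share of all genes was not computed without WT replicate 3, cKO replicate 1 or cKO replicate 3. Over the whole table, 0 to 1 genes were called (0 without cKO replicate 1 or cKO replicate 2). Over all genes, 4 were called without the variance trend and 2 with the replicate block, beside 1 as reported, and the block changed no adjusted call of the 10 genes. For open chromatin, no paired analysis was possible because the ATAC-seq regions carry 1 value per group. The median difference per Cd3 RNA was 0.22 (-0.09 to 0.59 leaving out 1 library) and became -0.51 per *Ptprc*, and the cause was not tested. With the start of transcription alone, 1 of 8 genes had a region, *Nkg7*, since the start given for *Cd274* lies inside the gene and *Cd4* and *Cd8b1* are not in the promoter table. Within 3000 bp, 1 gene had a peak in cKO replicate 1 and 2 genes in cKO replicate 2. The depth behind each value is unknown.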

Other observations

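Ratios between pairs of these genes, chosen after their values were seen, describe the balance of their RNA in each library and not numbers of cells. The TPM of *Cd4* was 2.18, 1.88 and 1.37 times that of *Cd8a* in WT replicates 1, 2 and 3 and 0.992, 2.19 and 5.76 times in the cKO replicates, so cKO replicate 3 held far more *Cd4* for its *Cd8a* than any other library. The beta chain *Cd8b1* stayed between 0.738 and 1.35 times the alpha chain *Cd8a* over the 6 libraries. *Gzmb* was 1.23 to 2.21 times *Gzma* in WT and 0.895 to 1.19 times in cKO, and the groups did not overlap, by a small margin between WT replicate 1 and cKO replicate 1. *Ctla4* was 6.26 to 14.5 times *Foxp3* in WT and 2.59 to 6.81 times in cKO. *Ifng* was 0.357 and 0.353 times *Nkg7* in replicate 2 of WT and cKO and 0.575 to 0.811 times in the other 4. None of these ratios was tested.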
